A study of Homo sapiens with 30 samples.

Results

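AP-1 is a dimeric transcription factor, and the 10 genes described here encode 6 of its FOS and JUN family subunits (FOS, FOSL1, FOSL2, JUN, JUNB, JUND), the stress-induced partner ATF3, and the immediate early genes EGR1, IER2 and IER3. They were taken by symbol from the deposited count table of HT29, a long-established cell line from a human colorectal adenocarcinoma, and each symbol matched 1 of 60675 rows. The cells had been kept for 24 h with vehicle (3 libraries) or with 20, 100 or 500 µg/mL of a herbal formula extracted in 70% ethanol. Each dose had 3 libraries for Soshiho-tang, 3 for Yijin-tang, 2 for Okbyeongpung-san and 1 for Soyo-san, which gave 30 libraries in 13 groups. All groups share the line and the treatment time. The sample labels give the solvent as 0.1% DMSO and the design text as 2%. By the design text an extract whose IC20 lay under 500 µg/mL was given at that IC20 and at dilutions of it, so the label doses used here are uncertain. Nothing in the labels says whether replicates came from separate cultures, so the p-values reflect the spread among these libraries alone, which may be technical. HT29 is 1 line, grown here without the other cell types of the colon.

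FOS proteins bind DNA mainly as dimers with a JUN protein, whereas JUN proteins can also pair with each other. Their dimers bind the TPA response element, and those with ATF proteins favour the cyclic AMP response element. Most of these genes are transcribed within minutes of a growth factor or stress signal, through ERK, JNK and p38 kinases, serum response factor (SRF) with its ELK partners, and ATF proteins already bound to DNA. The burst is brief for FOS, EGR1 and IER2, while FOSL1, FOSL2 and JUND can be held at a steady level. In colorectal tumour cells with an active RAS to ERK pathway FOSL1 is known as an ERK-dependent subunit. RNA was taken here at 24 h, long after such a burst.

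Total counts per library ranged from 18.5 M to 36.2 M (median 24.2 M), and levels are given as counts per M (CPM) after scaling of the 30 libraries. Of 10 colon epithelial markers examined 7 were at 10 CPM or more in every library, and the summed level of the 10 was 11082 to 13072 CPM, most of it from the keratins KRT8 and KRT18. CDX1, CDX2 and CDH17 were low, with medians of 0.72, 3.89 and 2.91 CPM. Of the 6 fibroblast markers 2 reached 1 CPM (summed level 1.70 to 3.68 CPM), and of the 4 endothelial markers 1 did (0.81 to 2.07 CPM), with COL3A1 and CDH5 at a median of 0. Of the 5 leukocyte markers LYZ, encoding lysozyme, was high (1410 to 1690 CPM) and CD14 reached 3.8 CPM, while PTPRC, the pan-leukocyte marker, had a median of 0. On the second principal component the vehicle libraries had scores of -32.5 to -19.8, apart from -14.1 to 9.4 in the extract libraries, and their library names also differ from all others, so vehicle treatment and library set cannot be told apart. For that reason the 500 µg/mL groups were also set against 20 µg/mL of the same formula.

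Per length of merged exons, IER3, a short gene whose product modulates survival and ERK signalling, was the most abundant of the 10 with a mean level over all libraries of 54.2 CPM per kb. The JUN family followed with JUNB at 26.5, JUND at 22.7 and JUN at 19.9 CPM per kb, next to FOSL1 at 19.7. IER2, EGR1 and FOSL2 lay between 10.6 and 14.8 CPM per kb. FOS itself was at 6.09 and ATF3 at 0.791 CPM per kb. On this scale the FOS family was represented mainly by FOSL1 and FOSL2 and not by FOS.

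Promoter letters are shown for the 4 genes whose window held a site known from the study of immediate early genes. Of these EGR1, JUN and ATF3 rose with Soshiho-tang as described next, while JUND, with a related site, did not pass the test. RefSeq (GRCh38.p14) gave the 250 bases before the start of 8 of the 10 genes; FOSL1 and IER3 were not matched. Both strands were searched for the CArG box bound by SRF, for TGACNTCA (the cyclic AMP response element and its JUN variant), for TGANTCA (the TPA response element) and for CCAAT. Capitals mark the match, and each line runs 5′ to 3′ on the strand of its gene.
EGR1, plus strand, chr5:138465354-138465425: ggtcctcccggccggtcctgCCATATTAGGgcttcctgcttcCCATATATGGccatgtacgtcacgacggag
JUN, minus strand, chr1:58784096-58784125: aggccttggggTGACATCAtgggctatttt
ATF3, plus strand, chr1:212565264-212565311: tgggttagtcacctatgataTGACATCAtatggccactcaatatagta
JUND, minus strand, chr19:18281795-18281842: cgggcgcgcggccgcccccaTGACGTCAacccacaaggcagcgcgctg
EGR1 carried 2 CArG boxes, a match found in 1.16% of 35116 promoter windows of this length. JUN and ATF3 carried the same 8 letters, TGACATCA, and JUND the palindrome TGACGTCA, and 6.87% of all windows hold a match to TGACNTCA. CCAAT was found in JUN, JUNB, JUND and ATF3 and in 32% of all windows. ATF3 had 2 start sites with a window, and its matches were all before 1 of them. TGANTCA was in none of the 8 genes and in 6.57% of all windows. FOS, FOSL2 and IER2 had no match to any of these letters in this window, and sequence further upstream was not searched. FOS and FOSL2 rose with Soshiho-tang too, as did JUNB with CCAAT alone, so these sites do not separate the genes that rose. GENCODE 29 starts the JUN gene further upstream, so its stretch lies inside that gene model. A match is a description of letters and does not show that a factor binds.

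Soshiho-tang at 500 µg/mL raised 8 of the 10 genes, both against vehicle and against its own 20 µg/mL. The largest rises in both comparisons were in FOSL1 and IER3. EGR1, JUNB, ATF3, FOSL2, FOS and JUN followed in that order against vehicle, and ATF3, EGR1, JUN, FOS, JUNB and FOSL2 against 20 µg/mL. JUND, the subunit known for steady expression in resting cells, and IER2, a nuclear immediate early factor, did not pass the test in either comparison. None fell. Against vehicle 39.2% of 15882 genes passed the test (21% higher), and against 20 µg/mL 26.8% did (13.3% higher). The median log2 fold change of the 10 genes was 0.32 against vehicle and 0.40 against 20 µg/mL, with the median of all genes at -0.01 in each. The comparisons share the 500 µg/mL libraries, so they are not independent. In bulk RNA a change in the number of cells that express a gene and a change in RNA per cell cannot be told apart.

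**Figure D1:**
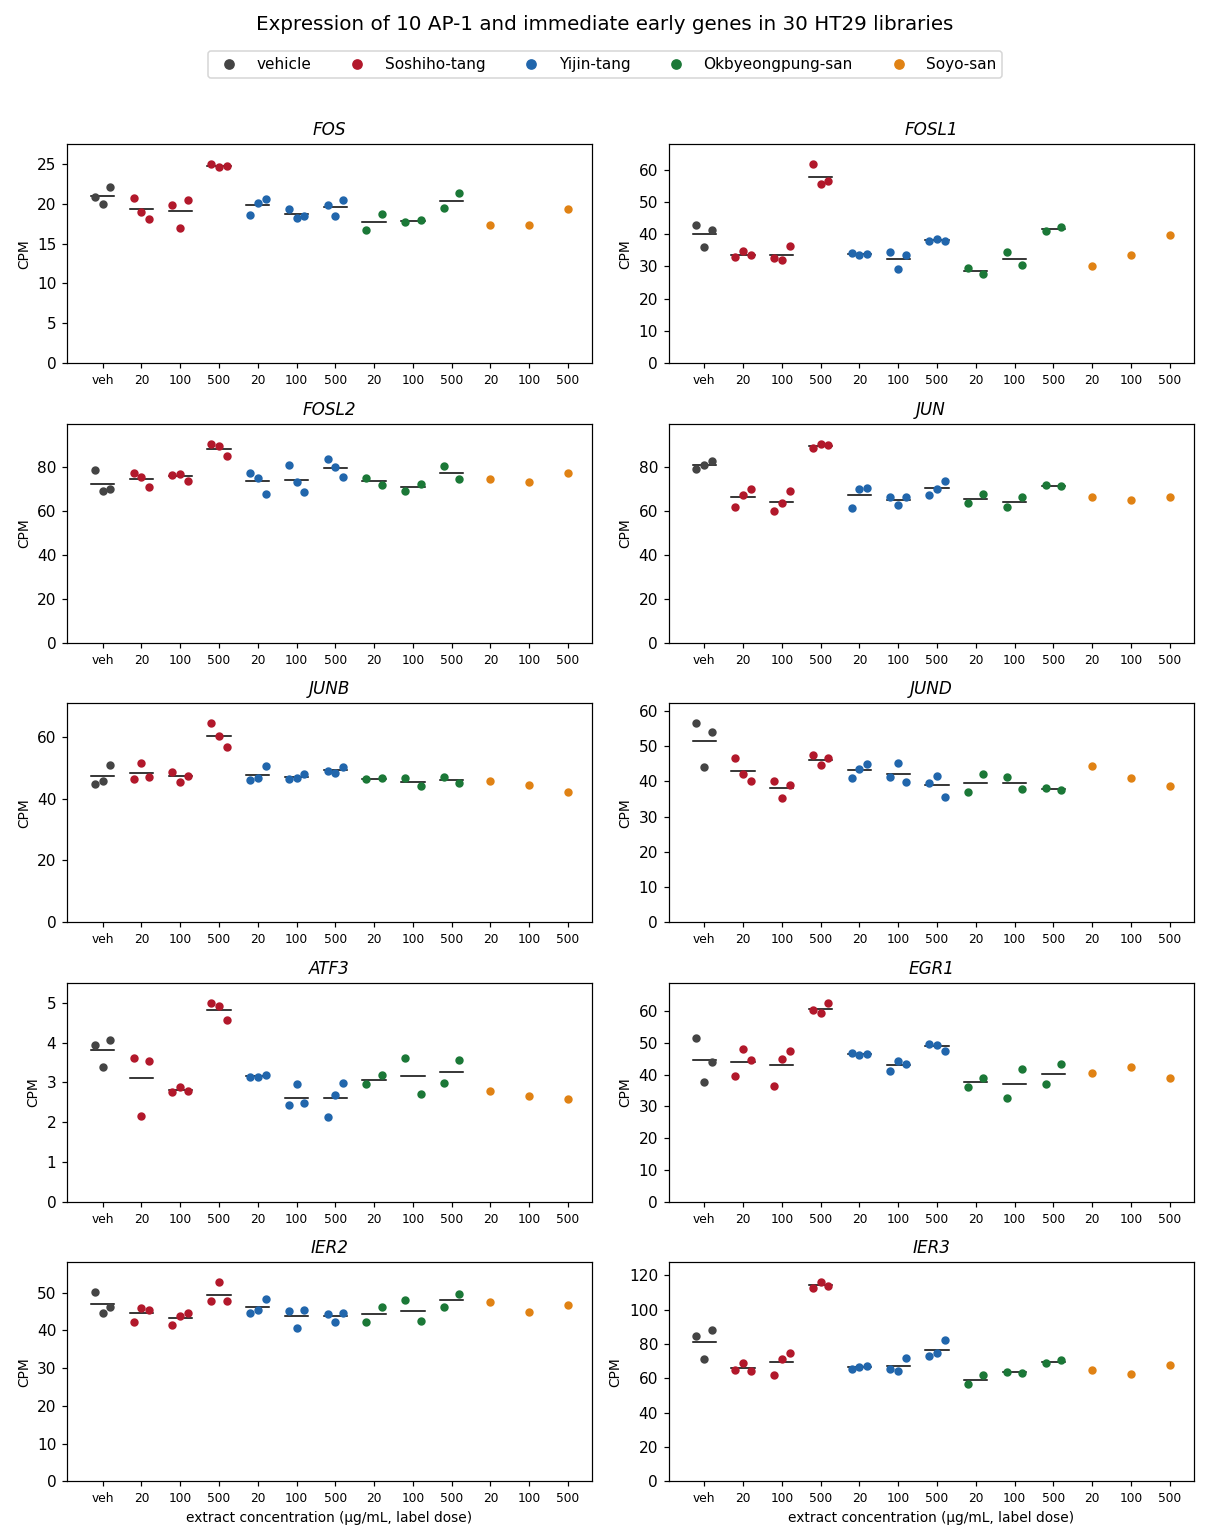
Each panel shows 1 gene. Points are single libraries in CPM on an axis from 0, in the order vehicle, then each formula at 20, 100 and 500 µg/mL, and black lines are group means where a group has at least 2 libraries. In 8 panels the 3 red points of Soshiho-tang at 500 µg/mL lie above all other points, and in the panels of JUND and IER2 they do not.

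FOSL1 (ENSG00000175592, chromosome 11, 65892049 to 65900573, minus strand, GRCh38), which encodes FRA1, had 61.6, 55.4 and 56.5 CPM in the libraries with 500 µg/mL of Soshiho-tang. The 3 vehicle libraries had 42.7, 36.1 and 41.3 CPM, those with 20 µg/mL 32.8, 34.7 and 33.4 CPM, and those with 100 µg/mL 32.6, 31.9 and 36.3 CPM. The groups at 20 and 100 µg/mL overlapped, and the group at 500 µg/mL lay above all of them. FOSL1 rose 1.71-fold from 20 to 500 µg/mL (log2 0.78 ± 0.063 SE, adjusted p = 1.7e-10) and 1.45-fold against vehicle (log2 0.54 ± 0.061, adjusted p = 6.5e-08).

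IER3 (ENSG00000137331, chromosome 6, 30743199 to 30744554, minus strand) had 113, 116 and 114 CPM at 500 µg/mL of Soshiho-tang. Vehicle had 85.0, 71.1 and 88.1 CPM, and 20 µg/mL had 64.9, 68.9 and 64.5 CPM. The lowest library at 500 µg/mL was above every other library of the series. IER3 rose 1.72-fold from 20 to 500 µg/mL (log2 0.79 ± 0.067 SE, adjusted p = 2.8e-09) and 1.41-fold against vehicle (log2 0.50 ± 0.066, adjusted p = 1.8e-06).

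The other FOS family members moved less. FOS (ENSG00000170345, chromosome 14, 75278774 to 75282230, plus strand), the founding member, had 24.9, 24.6 and 24.7 CPM at 500 µg/mL, against 20.7, 19.0 and 18.1 CPM at 20 µg/mL and 20.8, 20.0 and 22.1 CPM with vehicle. Its rise was 1.28-fold over 20 µg/mL (log2 0.36 ± 0.068 SE, adjusted p = 0.00019) and 1.19-fold over vehicle (log2 0.25 ± 0.066, adjusted p = 0.0032). FOSL2 (ENSG00000075426, chromosome 2, 28392448 to 28417312, plus strand), encoding FRA2, had 90.5, 89.4 and 84.8 CPM at 500 µg/mL, against 77.1, 75.5 and 71.0 CPM at 20 µg/mL and 78.4, 69.0 and 69.8 CPM with vehicle. The highest library outside the group, from 500 µg/mL of Yijin-tang, had 83.6 CPM of FOSL2, so the separation was narrow. FOSL2 rose 1.18-fold over 20 µg/mL (log2 0.24 ± 0.059, adjusted p = 0.0028) and 1.23-fold over vehicle (log2 0.29 ± 0.059, adjusted p = 0.00023).

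Within the JUN family, JUN and JUNB rose and JUND did not pass the test. JUN (ENSG00000177606, chromosome 1, 58780788 to 58784327, minus strand), the main transactivating partner of FOS, had 88.6, 90.7 and 90.4 CPM at 500 µg/mL of Soshiho-tang. It had 61.8, 67.3 and 70.1 CPM at 20 µg/mL and 79.4, 81.0 and 82.9 CPM with vehicle, so the 3 groups did not overlap and vehicle lay between the doses. JUN rose 1.35-fold over 20 µg/mL (log2 0.43 ± 0.056 SE, adjusted p = 8.3e-07) and 1.12-fold over vehicle (log2 0.16 ± 0.054, adjusted p = 0.021). The rise over vehicle lost its call when any library but vehicle library 3 was left out (5 of 6, log2 0.13 to 0.15, adjusted p = 0.06 to 0.093).

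JUNB (ENSG00000171223, chromosome 19, 12791496 to 12793315, plus strand), which can limit the activity of JUN, had 64.3, 60.2 and 56.6 CPM at 500 µg/mL. It had 46.3, 51.5 and 47.0 CPM at 20 µg/mL and 44.8, 45.8 and 51.0 CPM with vehicle. These last 2 groups overlapped, and JUNB rose over each of them by 1.25-fold (log2 0.32 ± 0.056 SE, adjusted p = 6.9e-05) and 1.29-fold (log2 0.37 ± 0.055, adjusted p = 5.3e-06). JUND (ENSG00000130522, chromosome 19, 18279760 to 18281622, minus strand) had 47.4, 44.6 and 46.7 CPM at 500 µg/mL, 46.6, 42.2 and 40.1 CPM at 20 µg/mL and 56.5, 44.2 and 54.1 CPM with vehicle. The groups of JUND overlapped, with log2 differences of 0.10 (95% interval -0.05 to 0.26) over 20 µg/mL and -0.15 (-0.30 to 0.00) against vehicle. Without vehicle library 2, the lowest for JUND, the fall against vehicle passed the test (log2 -0.27, adjusted p = 0.002).

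ATF3 and EGR1 also rose. ATF3 (ENSG00000162772, chromosome 1, 212565334 to 212620777, plus strand), induced by many stresses including the integrated stress response, was the scarcest of the 10. It had 5.00, 4.91 and 4.56 CPM at 500 µg/mL of Soshiho-tang, 3.61, 2.17 and 3.53 CPM at 20 µg/mL and 3.94, 3.40 and 4.07 CPM with vehicle. All 3 libraries at 500 µg/mL were above the others, with a wide spread at 20 µg/mL. The rise over 20 µg/mL was 1.56-fold (log2 0.64 ± 0.15 SE, adjusted p = 0.0016). The rise over vehicle of 1.27-fold (log2 0.35 ± 0.14, adjusted p = 0.047) lost its call when any 1 of the 6 libraries was left out (log2 0.27 to 0.38, adjusted p = 0.061 to 0.17).

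EGR1 (ENSG00000120738, chromosome 5, 138465490 to 138469315, plus strand), a zinc finger factor, had 60.3, 59.3 and 62.5 CPM at 500 µg/mL. It had 39.6, 47.9 and 44.5 CPM at 20 µg/mL and 51.5, 37.8 and 44.0 CPM with vehicle, and these last groups overlapped. EGR1 rose 1.38-fold over 20 µg/mL (log2 0.46 ± 0.092 SE, adjusted p = 0.00082) and 1.37-fold over vehicle (log2 0.45 ± 0.09, adjusted p = 0.00051). IER2 (ENSG00000160888, chromosome 19, 13150415 to 13154908, plus strand) had 47.7, 52.7 and 47.7 CPM at 500 µg/mL, 42.2, 45.9 and 45.4 CPM at 20 µg/mL and 50.2, 44.6 and 46.1 CPM with vehicle. Its group at 500 µg/mL lay above that at 20 µg/mL and overlapped vehicle, with log2 differences of 0.15 ± 0.057 (adjusted p = 0.051) and 0.08 ± 0.056 (adjusted p = 0.27).

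Across all 30 libraries, 8 of the 10 genes had their 3 highest values in the 3 libraries with 500 µg/mL of Soshiho-tang, a pattern shown by 6.51% of 16885 genes. These 3 libraries also stood apart on the first principal component (33.1 to 38.1, against -13.4 to 11.6 in all others). Their mitochondrial share of counts was 9.06% to 10.78%, against 11.48% to 13.93% with vehicle and 10.13% to 12.87% in the other extract libraries. The part of that share in the changes of the 10 genes was not tested.

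**Figure D2:**
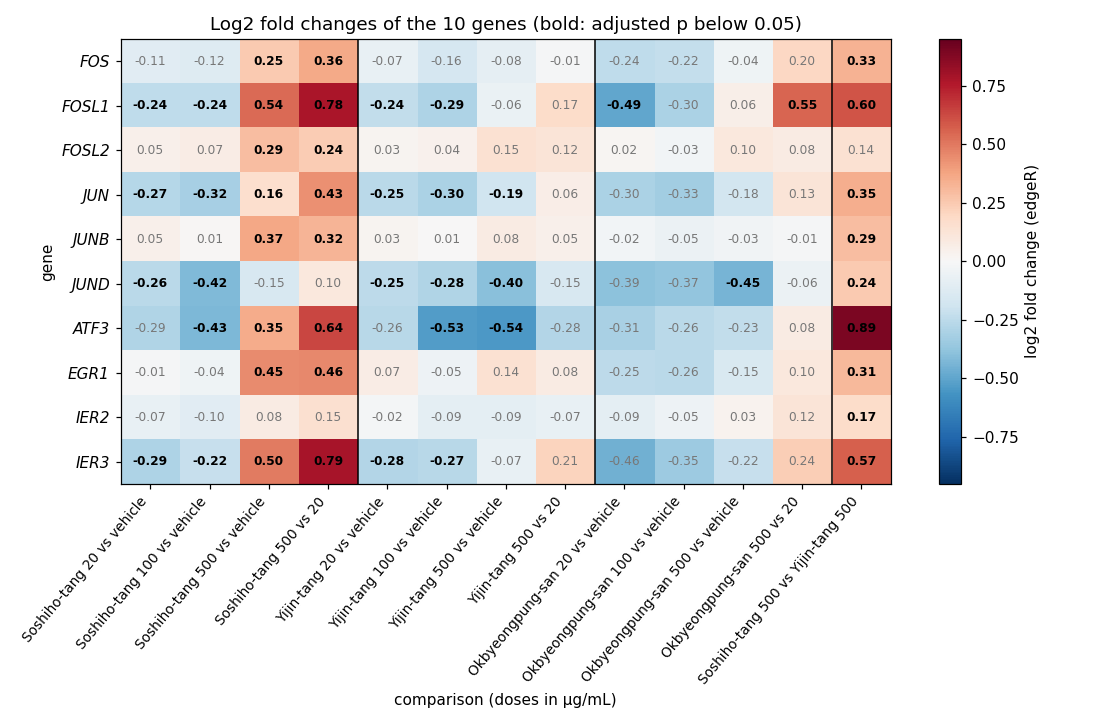
Rows are the 10 genes and columns the 13 tested comparisons. Each cell gives the edgeR log2 fold change, in bold where the adjusted p is below 0.05. Red fills the columns of Soshiho-tang at 500 µg/mL except for JUND against vehicle (log2 -0.15, not bold). The bold cells of the lower doses are blue.

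At 20 and 100 µg/mL of Soshiho-tang no gene of the group rose against vehicle, and some were lower. At 20 µg/mL 4 fell (FOSL1, JUN, JUND and IER3, by log2 changes between -0.29 and -0.24), with 6.34% of all genes called lower. At 100 µg/mL 5 fell (FOSL1, JUN, JUND, ATF3 and IER3, between -0.43 and -0.22), with 7.05% called lower. JUN was the 1 gene of the 10 whose 24 extract libraries other than Soshiho-tang at 500 µg/mL all lay below the lowest vehicle library. These had 60.1 to 74.0 CPM of JUN against 79.4 to 82.9 CPM with vehicle. The share of all genes with this pattern was not computed, so it is not read as particular to JUN. All contrasts with vehicle share its 3 libraries, which stood apart as a set.

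Yijin-tang at 500 µg/mL differed from its 20 µg/mL in none of the 10 genes by the edgeR test, which called 1.86% of all genes. At an unadjusted p below 0.05 edgeR gave 2 higher genes, and DESeq2 called 0. The share of all genes at that looser threshold is not given, and the 1.86% does not apply to it. FOSL1 had 37.9, 38.5 and 37.8 CPM at 500 µg/mL of Yijin-tang and 34.1, 33.4 and 33.9 CPM at 20 µg/mL. The groups did not overlap, and the log2 difference was 0.17 (95% interval 0.05 to 0.30, adjusted p = 0.21). IER3 had 73.1, 74.7 and 82.6 CPM against 65.7, 66.6 and 67.3 CPM, again without overlap (log2 0.21, 95% interval 0.08 to 0.35, adjusted p = 0.13). ATF3 had 2.14, 2.69 and 2.99 CPM against 3.13, 3.13 and 3.20 CPM, the opposite direction (log2 -0.28, 95% interval -0.59 to 0.03, adjusted p = 0.5). For FOS the interval was -0.14 to 0.12 and for JUN -0.05 to 0.17, so rises as large as those of Soshiho-tang in these genes lay outside it.

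Against vehicle, Yijin-tang at 500 µg/mL lowered 3 of the 10 genes, with 8.39% of all genes called lower. JUND fell to 0.759-fold (log2 -0.40 ± 0.077 SE, adjusted p = 0.00066), ATF3 to 0.687-fold (log2 -0.54 ± 0.15, adjusted p = 0.011) and JUN to 0.878-fold (log2 -0.19 ± 0.055, adjusted p = 0.014). Without Yijin-tang library 1 of this dose ATF3 (log2 -0.42, adjusted p = 0.086) and JUN (log2 -0.17, adjusted p = 0.062) lost their calls. At 100 µg/mL FOSL1, JUN, JUND, ATF3 and IER3 fell by log2 changes between -0.53 and -0.27 (7.37% of genes called lower). At 20 µg/mL FOSL1, JUN, JUND and IER3 fell, between -0.28 and -0.24 (6.66% called lower).

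The formulas were compared directly at 500 µg/mL, where 9 of the 10 genes were higher with Soshiho-tang than with Yijin-tang (12.9% of all genes called, 6.54% higher). The largest difference was in ATF3 (log2 0.89 ± 0.15 SE, adjusted p = 0.0001), followed by FOSL1 (0.60 ± 0.062, adjusted p = 5e-08) and IER3 (0.57 ± 0.066, adjusted p = 1.2e-06). JUN, FOS and JUNB were higher by 0.35, 0.33 and 0.29. The calls of EGR1 (0.31, adjusted p = 0.029), JUND (0.24, adjusted p = 0.039) and IER2 (0.17, adjusted p = 0.04) were lost when single libraries were left out, in 6, 5 and 4 of 6 cases. FOSL2 was not called (0.14, adjusted p = 0.11).

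The test of the difference between dose effects, 500 minus 20 µg/mL with Soshiho-tang minus the same with Yijin-tang, is a contrast without vehicle, whose libraries enter only the fit's estimate of the spread. It called 6 of the 10 genes, all with the larger effect in Soshiho-tang, against 4.58% of all genes (2.15% in that direction). These were ATF3 (log2 0.92 ± 0.22 SE, adjusted p = 0.0096), FOSL1 (0.60 ± 0.09, adjusted p = 5.7e-05), IER3 (0.57 ± 0.095, adjusted p = 0.00039), JUN (0.37 ± 0.079, adjusted p = 0.0038), FOS (0.37 ± 0.096, adjusted p = 0.021) and JUNB (0.27 ± 0.079, adjusted p = 0.042). The call of JUNB was lost without any of 9 libraries of 12 (adjusted p = 0.051 to 0.14), and that of FOS without any of 4 (0.054 to 0.071). EGR1 (0.38, adjusted p = 0.11), IER2 (0.22, adjusted p = 0.12), JUND (0.25, adjusted p = 0.25) and FOSL2 (0.12, adjusted p = 0.53) did not pass.

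**Figure D3:**
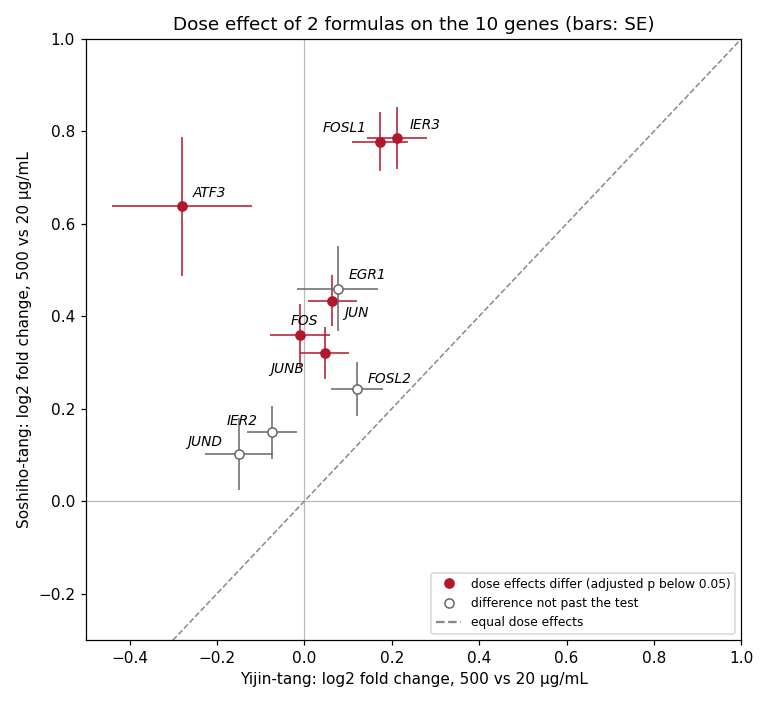
The log2 fold change from 20 to 500 µg/mL is plotted for each gene with Yijin-tang on the horizontal and Soshiho-tang on the vertical axis, with bars of 1 SE. All 10 points lie above the dashed line of equal effects, and the 6 filled points passed the test of the difference.

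Okbyeongpung-san had 2 libraries per dose, 1 in batch E and 1 in batch D by their titles, which do not say what a batch is. FOSL1 had 41.1 and 42.3 CPM at 500 µg/mL, 34.4 and 30.4 CPM at 100 µg/mL and 29.5 and 27.6 CPM at 20 µg/mL. The 3 doses did not overlap in FOSL1, nor in IER3, which had 69.1 and 70.6, 64.0 and 63.3, and 56.7 and 62.0 CPM in the same order. With 2 libraries per dose such a separation is weak evidence, and the share of all genes that show it was not computed. FOSL1 rose 1.46-fold from 20 to 500 µg/mL (log2 0.55 ± 0.098 SE, adjusted p = 0.023), by 0.48 within batch E and 0.61 within batch D, and was the 1 gene of the 10 called, with 0.247% of all genes called higher. The call was lost when any 1 of the 4 libraries was left out (log2 0.50 to 0.60, adjusted p = 0.17 to 0.4), where the lone library of a dose is assumed to vary like the other groups. IER3 (log2 0.24, 95% interval 0.05 to 0.42, adjusted p = 0.54) and FOS (0.20, 0.01 to 0.38) were not called. For FOS the unadjusted p of the edgeR F-test was 0.059 although the interval leaves out 0, because normal intervals are narrower than that test.

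Against vehicle, Okbyeongpung-san at 20 µg/mL lowered FOSL1 (log2 -0.49 ± 0.09 SE, adjusted p = 0.039, with 0.133% of genes called lower), and at 500 µg/mL it lowered JUND (log2 -0.45 ± 0.1, adjusted p = 0.031, with 2.19% called lower). Each call was lost without vehicle library 3 or without either library of the dose (FOSL1 -0.54 to -0.43, adjusted p = 0.17 to 0.42, and JUND -0.46 to -0.41, adjusted p = 0.1 to 0.26). At 100 µg/mL edgeR called 0 of the 10, with 0.108% of all genes called, while 5 were lower at an unadjusted p below 0.05 and DESeq2 called 3 lower. With batch as a term in a fit of all 30 libraries 3, 5 and 5 of the 10 were lower at 500, 100 and 20 µg/mL, JUND among them at each dose, and with the replicate number as a block 1, 1 and 3 were. The shares of all genes given here are of the main fit alone, and those under the other settings are not given.

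Soyo-san had 1 library per dose and no test. Its libraries are in batch D by their titles and the vehicle libraries in batch E, so that formula and batch cannot be told apart against vehicle. Its FOSL1 level was 30.2, 33.6 and 39.7 CPM at 20, 100 and 500 µg/mL, a log2 difference of 0.39 between the ends. No gene of the 10 differed by 2-fold from the vehicle mean or between 500 and 20 µg/mL, where 0.208% of 12010 genes did between doses and 0.283%, 0.192% and 0.275% did from vehicle at 500, 100 and 20 µg/mL. Side by side, the log2 difference of FOSL1 between 500 and 20 µg/mL was 0.78 with Soshiho-tang, 0.55 with Okbyeongpung-san, 0.39 with Soyo-san and 0.17 with Yijin-tang. FOSL1 was higher at 500 than at 20 µg/mL in all 4 formulas, but the call was made in 2, and differences between formulas other than Soshiho-tang and Yijin-tang were not tested.

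The order of group means differed between genes. FOSL1 was highest with Soshiho-tang at 500 µg/mL (57.9 ± 3.33 CPM, SD, n = 3), followed by Okbyeongpung-san at 500 µg/mL (41.7 ± 0.875, n = 2), vehicle (40.0 ± 3.51, n = 3), Soyo-san at 500 µg/mL (39.7) and Yijin-tang at 500 µg/mL (38.1 ± 0.398, n = 3). The libraries of the other formulas at 500 µg/mL all lay within the range of the vehicle libraries (36.1 to 42.7 CPM). FOSL1 was lowest with 20 µg/mL of Okbyeongpung-san (28.5 ± 1.32, n = 2). For IER3 the group at 500 µg/mL of Soshiho-tang (114 ± 1.49) was followed by vehicle (81.4 ± 9.04) and Yijin-tang at 500 µg/mL (76.8 ± 5.07), which overlapped. JUND was the exception, with vehicle highest (51.6 ± 6.5) and Soshiho-tang at 500 µg/mL next (46.2 ± 1.44), and these overlapped.

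A further 116 genes of the same pathway were described by 6 lists, chosen with results of these data known. Their counts stand beside the 26.8% of all genes called from 20 to 500 µg/mL of Soshiho-tang (13.3% higher). Of 10 measured genes for other AP-1 and related bZIP factors, 4 rose and 2 fell from 20 to 500 µg/mL of Soshiho-tang (median log2 0.07). FOSB, the remaining FOS family gene, went from 4.23 ± 0.0121 to 8.5 ± 0.654 CPM (SD, n = 3 each; log2 1.00 ± 0.11 SE, adjusted p = 1.3e-07), with vehicle at 5.02 ± 0.541 CPM. The small MAF genes MAFF and MAFG, which lack a transactivation domain, rose by log2 0.48 and 0.38. BATF2, an interferon-related BATF factor, fell by log2 1.01 at a low level (1.90 to 0.969 CPM).

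Among 15 other immediate early transcription factors 6 rose and 1 fell (median log2 0.15). KLF4, a factor of epithelial differentiation, rose from 7.05 ± 0.586 to 10.5 ± 0.477 CPM (log2 0.58, adjusted p = 3.4e-05), and NR4A2, CSRNP1 and KLF10 rose by 0.46, 0.43 and 0.28. Of 25 other immediate early genes 12 rose and 3 fell (median log2 0.18). LIF, a cytokine, rose from 22.0 ± 2.03 to 35.6 ± 1.18 CPM (log2 0.69, adjusted p = 8.3e-09), GDF15, a stress-induced cytokine, by 0.68, and PPP1R15A (GADD34), which reverses eIF2α phosphorylation, by 0.56. BTG2, an antiproliferative p53 target, went the other way, from 39.2 ± 0.806 to 13.8 ± 0.62 CPM (log2 -1.51 ± 0.059 SE, adjusted p = 1.1e-16).

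Of 15 ERK feedback and output genes 5 rose and 3 fell (median log2 0.08), so the list had no common direction. DUSP5, a nuclear phosphatase of ERK, rose from 4.30 ± 0.634 to 10.0 ± 0.539 CPM, with vehicle at 4.29 ± 0.364 CPM (log2 1.21 ± 0.11 SE over 20 µg/mL, adjusted p = 1.6e-09). PHLDA1, an ERK-induced gene, rose by log2 0.51. SPRY1 and SPRY2, feedback inhibitors of receptor tyrosine kinase signalling, fell by log2 0.66 and 0.39. Of 16 measured genes known as AP-1 targets 7 rose and 4 fell (median log2 0.20). PLAUR, the urokinase receptor, rose by log2 0.46, CXCL8, a neutrophil chemokine, by 0.59 and HMGA1, a chromatin protein, by 0.42. The 4 that fell were IVL, MMP14, MMP7 and CD44. IVL fell to 0.257-fold (adjusted p = 0.001), the largest change of this list. MMP14, MMP7 and CD44 had log2 changes of -0.73, -0.46 and -0.20, so this list too had no common direction.

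Of 20 upstream kinases and promoter-bound factors 1 rose and 3 fell (median log2 0.04), with 26.8% of all genes called. MAP2K1, which encodes MEK1, rose from 92.5 ± 2.68 to 109 ± 3.71 CPM (log2 0.23, adjusted p = 0.00021), and MAP3K1 fell by log2 0.27. MAPK3 (log2 -0.18) and MRTFB (log2 -0.13) fell too, and each lost its call under 6 of 12 alternative settings. Against vehicle the counts of higher and lower genes were 3 and 2, 5 and 3, 11 and 5, 5 and 5, 5 and 5, and 7 and 5 in the same order of lists. Of all genes 39.2% were called there (21% higher). With Yijin-tang, BTG2 (log2 -0.41), BHLHE40 (log2 -0.48) and SPRY1 (log2 -0.28) were the list genes called from 20 to 500 µg/mL, all lower, with 1.86% of all genes called. BTG2 kept its call under all 12 alternatives. BHLHE40 lost it without Yijin-tang library 1 at 500 µg/mL, and SPRY1 (adjusted p = 0.049) under 6 of 12.

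**Figure D4:**
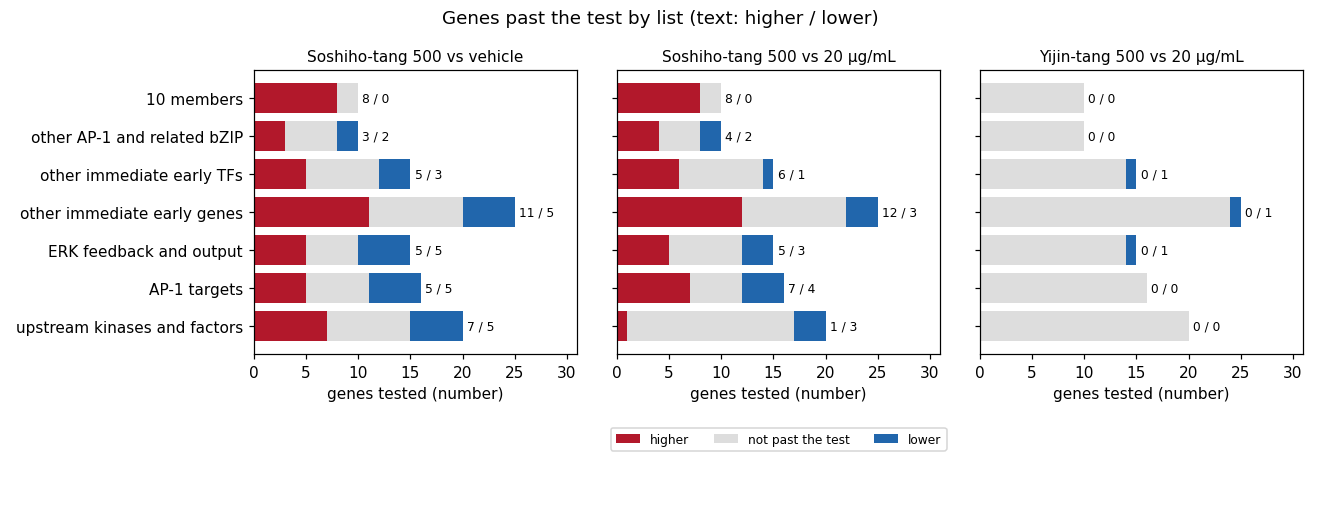
Bars give the number of genes tested in each list, divided into higher (red), lower (blue) and not past the test (grey), for Soshiho-tang at 500 µg/mL against vehicle, Soshiho-tang at 500 against 20 µg/mL and Yijin-tang at 500 against 20 µg/mL. The figures beside the bars are higher and lower counts. The 10 genes show 8 rises and no fall in the panels of Soshiho-tang, while each other list has genes in both directions.

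Over the 13 group means of log2 CPM, each from its own libraries of the same line and table, the highest correlations were among FOS, FOSL1, JUN and IER3. Pearson's r was 0.93 for FOS with IER3 and for JUN with IER3, 0.92 for FOS with FOSL1 and 0.91 for FOSL1 with IER3. These genes were not a distinct set. JUNB with EGR1 (0.89), JUN with ATF3 (0.87) and EGR1 with IER3 (0.87) lay above FOSL1 with JUN (0.86). The correlations were not computed without Soshiho-tang at 500 µg/mL. JUND had r between 0.03 and 0.63 with the other 9 genes. Among all genes with a mean of at least 5 CPM, the pattern most like FOSL1 was that of HMGA1 (r = 0.989), followed by NTSR1 (0.980) and MAPRE3 (0.975). IER3 was nearest to TMBIM1 (0.982), FFAR4 (0.970) and KLF5 (0.961), and JUN to MAP1S (0.962), PDLIM7 (0.958) and ITGA3 (0.951). ATF3 was nearest to PPP1R15A (0.932), GDF15 (0.928) and MAP1S (0.921), the first of which encodes the phosphatase subunit of the integrated stress response. EGR1 was nearest to RSRC2 (0.929), VIPR1 (0.919) and KLF10 (0.915), and JUNB also to VIPR1 (0.962). NPAS2 was nearest to FOS (0.961), PAQR5 to FOSL2 (0.978), HERPUD1 to JUND (0.948) and LSM10 to IER2 (0.905). These are descriptions over 13 points and carry no test.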

How the data were processed

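RNA was measured by sequencing in 30 libraries. The deposited values were RSEM expected counts per gene, not normalised by the authors between libraries, and between 9.5% and 11.5% of values were not whole. Libraries from RNA of integrity above 7 were directional, with 100 bp paired reads, per the labels' protocols. The submitters' processing notes name RSEM 1.3.3, STAR 2.7.3a, Trim Galore 0.6.5, FastQC 0.11.9 and GRCh38. Which annotation was used is not given in the sources used here. A further 30 columns without names held no values and were not used. Estimated counts divide reads between genes sharing sequence. Symbols were found for 56558 of 60675 identifiers, and 57055 were in GENCODE 29, the source of coordinates and exon lengths.

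Counts were rounded and analysed in R 4.3.3 with edgeR 4.0.16 (filterByExpr, TMM, robust quasi-likelihood F-test, Benjamini-Hochberg adjustment over all genes tested). A gene was called at an adjusted p below 0.05. Vehicle, Soshiho-tang and Yijin-tang shared a fit (21 libraries, 15882 genes), and vehicle and Okbyeongpung-san another (9 libraries, 15762 genes). Between libraries the biological coefficient of variation was 4.7% in the first and 7% in the second. SE is the log2 fold change divided by the square root of F, and 95% intervals are normal. Such intervals are narrower than the F-test implies where libraries are few. CPM used TMM factors of all 30 libraries, between 0.942 and 1.024. Soyo-san was compared on log2 CPM with a prior count of 2, for genes with a mean of at least 2 CPM. No replicate pair agreed within sampling noise (per degree of freedom, chi-square was 2.3 to 18.63). The 3 vehicle pairs were the highest (10.25 to 18.63), against at most 9.55 in a pair of extract libraries. Each fit shares its estimate of the spread between groups, vehicle included. The script was tested on simulated counts with 200 changed genes.

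The 10 genes and all lists were chosen with earlier results of these data known. Named genes were all 10, up to 4 of each other list by adjusted p in a comparison, and for each of the 10 the 3 with the highest correlation of group means. Alternatives were RLE scaling, no filter, DESeq2 1.42.0, all 30 libraries in a fit, a replicate block, only the groups compared, batch as a term, batch E alone, and each library left out. Wortmannin, named in the design text, was not analysed here.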

Additional observations from a re-analysis of the deposited data

Results flagged for a closer look

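For 6 of the 10 genes the effect of dose differed between 2 formulas by a test of the difference itself, the change from 20 to 500 µg/mL with Soshiho-tang minus that with Yijin-tang. The log2 difference was 0.60 for FOSL1, 0.57 for IER3, 0.37 for JUN, 0.92 for ATF3, 0.37 for FOS and 0.27 for JUNB. In ATF3 the fitted changes had opposite signs, a rise of 0.64 with Soshiho-tang and -0.28 with Yijin-tang, of which only the first was called in the main edgeR fit. The calls of FOSL1, IER3, JUN and ATF3 held under all 17 alternative settings tried for this contrast.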

How the results depend on the processing

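The 8 rises from 20 to 500 µg/mL of Soshiho-tang kept their call under all 12 alternatives. Against vehicle 6 of 8 did (not JUN and ATF3), against Yijin-tang 6 of 9 (not EGR1, IER2 and JUND), and for the difference of dose effects 4 of 6 (not FOS and JUNB). No direction reversed in a called result. Of the calls in all comparisons 30 of 55 held throughout, and of the 22 further calls gained most were with Okbyeongpung-san.

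Counts of the 10 genes called moved by over 1.5 times as follows, and the cause was not tested. Shares of all genes called under the settings of this section are not given, so no count is read as particular to the 10. With only the groups compared in the fit (fewer libraries to estimate the spread) the counts were 2 and 1 for Soshiho-tang at 100 and 20 µg/mL against vehicle, 1 each for Yijin-tang at 500, 100 and 20 µg/mL, 2 for Yijin-tang at 500 against 20 µg/mL, and for Okbyeongpung-san 0 at 500 and 0 at 20 µg/mL against vehicle and 2 at 500 against 20 µg/mL. Without the filter they were 1 for Yijin-tang at 500 against 20 µg/mL and 4 each for Okbyeongpung-san at 100 and 20 µg/mL. DESeq2 gave 3 and 4 for these last comparisons. With all 30 libraries in a fit Okbyeongpung-san had 3, 4 and 5 at 500, 100 and 20 µg/mL, and with batch as a term 3, 5 and 5. With batch E alone it had 0 at 500 µg/mL, 0 at 20 µg/mL and 0 for 500 against 20 µg/mL.

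Leaving out single libraries gave ranges of 3 to 5 for Soshiho-tang at 100 µg/mL and 1 to 5 for Yijin-tang at 500 µg/mL. For Okbyeongpung-san the high dose had 0 to 2 against vehicle, the middle and low doses each 0 to 4, and 500 against 20 µg/mL had 0 throughout.

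With the replicate block Okbyeongpung-san had 1 and 3 genes called at 100 and 20 µg/mL, and no other count of the 10 moved by over 1.5 times. The library names carry the replicate number as their middle part. Among vehicle, Soshiho-tang and Yijin-tang, deviations of libraries with the same number correlated between -0.063 and 0.062. Those with other numbers correlated between -0.072 and 0.057, so no pairing by number is seen in these values. Deviations within a group of 3 sum to 0, so these ranges are not independent. Within Okbyeongpung-san, where number and batch coincide, the ranges were 0.004 to 0.043 and -0.043 to -0.004. With 2 libraries per dose their deviations are exact opposites, so the second range mirrors the first and adds nothing. Counts over all genes differed by over 1.5 times in 59 of 175 alternatives, and counts of the 6 other lists in 221 of 1050, of which 3 of 72 were for Soshiho-tang at 500 against 20 µg/mL. Of the 24 list genes named by rule in that comparison 22 kept their call throughout. Okbyeongpung-san with 2 and Soyo-san with 1 library per dose limit what can be called.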
